A study of Danio rerio with 4 samples.

Results

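Hif-1α ChIP in wild-type zebrafish embryos is described from the complete list of peaks called on the wild-type ChIP library against the wild-type input library, 1280 of the 6457 peaks of the series. No peak was selected or removed. Embryos of a TL/LWT mix were raised for 4 days at 28 °C and pooled, and chromatin was precipitated with a custom antibody against Hif-1α to give 1 wild-type ChIP library, set against 1 input library of wild-type chromatin that was not precipitated. The series also holds a ChIP and an input library of vhl mutants of the same mix and age. These mutants were homozygous for the hu2117 allele and sorted by the fluorescence of a phd3:gfp reporter transgene. The methods do not state whether the wild-type pool carried this transgene. The 5177 vhl peaks are used below for overlap, for counts in wide gaps and for distances between summits. They also help to set the chromosome spans over which densities were calculated. Whole embryos were used, so no cell type can be assigned to a peak.

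Hif-1α is the oxygen-sensitive subunit of hypoxia-inducible factor. In normal oxygen, prolyl hydroxylases such as Egln3 (Phd3) modify it and the von Hippel-Lindau protein then marks it for degradation, whereas in low oxygen, or without the von Hippel-Lindau protein, it accumulates, pairs with Arnt and binds hypoxia response elements with the core RCGTG, where R is A or G. Wild-type embryos in normal oxygen therefore carry the pathway in its restrained state, and the list describes what the antibody recovered in that state.

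Of the 16780814 uniquely mapped reads of the wild-type ChIP library, 7554444 (45.0%) remained as tags, reads counted no more than once for each position, and of the 19400899 reads of the input library 9102419 (46.9%) remained. The peaks together held 12158 tags, 0.161% of the tags kept, and covered 146800 bp. With 1 library of each kind there was no replicate, so no difference below was tested, and the intervals, all 95%, cover counting error only. Peaks from 1 library are not replicates of the genotype.

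The study lists 21 windows near genes with its ChIP-qPCR, and a wild-type peak overlapped 5 of them. Whether the windows match the amplified products was not checked. The primers of these 5 are shown because they place the peaks on the genome and hold part of its sequence. Letters are lower case, with any match to RCGTG, searched on both strands, in capitals. The motif occurred in 1 of the 10 primers, as GCGTG in the reverse primer of znf292b. The study describes its ChIP-qPCR sites as vhl peaks chosen for the motif, with primers placed around it. The 204 primer bases are only part of these sites, so a primer without the motif does not show a site without it.
znf292b forward: ttgttcagtgtgagaggaggag
znf292b reverse: aaatcactgtGCGTGctgac
gapdhs forward: ccttcgtgatggattgctc
gapdhs reverse: ctcacctccttcagtgatgct
ap3m2 forward: gccattatctgagccacact
ap3m2 reverse: tctgccagttgcactctctc
tnfrsf19 forward: cctctcctcctctctctcca
tnfrsf19 reverse: ttattgtggctctggtggtc
prelid1 forward: gtcgtcactgaccatgacctt
prelid1 reverse: gatcattcgtctgtcccgtct

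The strongest of the 5 lay at ap3m2, which encodes a subunit of the AP-3 vesicle adaptor, from chr5:16031115-16031429 in Zv9, and ranked number 7 of all wild-type peaks by tags. It was 315 bp long with 269.8 tags per kb and a fold enrichment over local background of 38.98. Its summit, the base of highest coverage, lay 13 bp before the middle of the listed window. A second, weaker peak of 9 tags had its summit 716 bp further along, with a fold enrichment of 9.33. The peak at tnfrsf19, a receptor of the tumour necrosis factor receptor superfamily, covered chr15:8409851-8410094 with 110.7 tags per kb, and its summit lay 16 bp before the window's middle. At znf292b, which encodes a zinc finger protein, the peak at chr20:232568-232727 held 81.2 tags per kb with a summit 8 bp before the middle. The peaks at prelid1, named for a protein of the mitochondrial intermembrane space, and at gapdhs, a glyceraldehyde-3-phosphate dehydrogenase of glycolysis, were shorter, at 109 bp and 116 bp, with 82.6 and 86.2 tags per kb. The summit at prelid1 lay 13 bp past the middle of its window and that at gapdhs 54 bp past it. The 5 summits therefore lay from 8 to 54 bp from the middle of the windows. These 5 windows were taken because a peak overlapped them, so short distances were partly set in advance.

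Among the other 16 windows the nearest wild-type summit lay from 6.10 kb to 1.58 Mb away, with a median of 0.492 Mb. It was closer than 10 kb at 3 of them. At pfkfb3, which controls the level of an activator of glycolysis, the nearest peak was chr4:24566762-24566869, 6.10 kb before the window. The study reports that a vhl peak in a coding exon of pfkfb3 was also found in its wild-type sample. A window without a peak therefore does not mean a gene without one. Whether the peak named here is the exonic one was not tested. At mxi1, a MYC antagonist, it was chr22:33026623-33026844, 6.63 kb past the window. At egln3 it was chr17:9794346-9795179, 7.20 kb past the window. At p4ha1b, a collagen prolyl 4-hydroxylase subunit, it was 1.04 Mb away. The windows had been chosen from vhl peaks, so they do not sample the wild-type list. By ChIP-qPCR the study saw some enrichment at many of its sites in wild-type material too, and proposes a low level of Hif-1α binding there. A window without a wild-type peak is therefore not shown to be without signal.

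Wild-type peaks occurred on each of chromosomes 1 to 25, with 22 to 69 peaks on a chromosome and a median of 52. Densities were calculated over the distance between the outermost peaks of either genotype, 1351 Mb in all, and gave 0.948 peaks per Mb (Poisson interval 0.897 to 1.001), or 1 peak for every 1.06 Mb. The intervals of 21 chromosomes included the value for all chromosomes together.

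The highest density was on chromosome 17, with 68 peaks or 1.26 per Mb (interval 0.979 to 1.60), the only chromosome whose interval lay above the value for all. A group of 7 peaks around egln3, described below, contributed to this. Without it, chromosome 17 held 61 peaks at 1.13 per Mb (interval 0.865 to 1.45), which includes the value for all chromosomes. The lowest density was on chromosome 22, with 22 peaks or 0.521 per Mb (interval 0.327 to 0.789), and the ratio of the highest to the lowest was 2.42. Chromosome 4, at 0.702 per Mb (interval 0.508 to 0.945), and chromosome 5, at 0.704 per Mb (interval 0.527 to 0.920), also lay below. Chromosome 8 had a similar density, 0.699 per Mb, with an interval that reached 0.956. The span of chromosome 4, 61.3 Mb, includes gaps of 10.1 and 9.48 Mb, described below, that held no vhl peak either. Its density without them was not calculated.

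**Figure D1:**
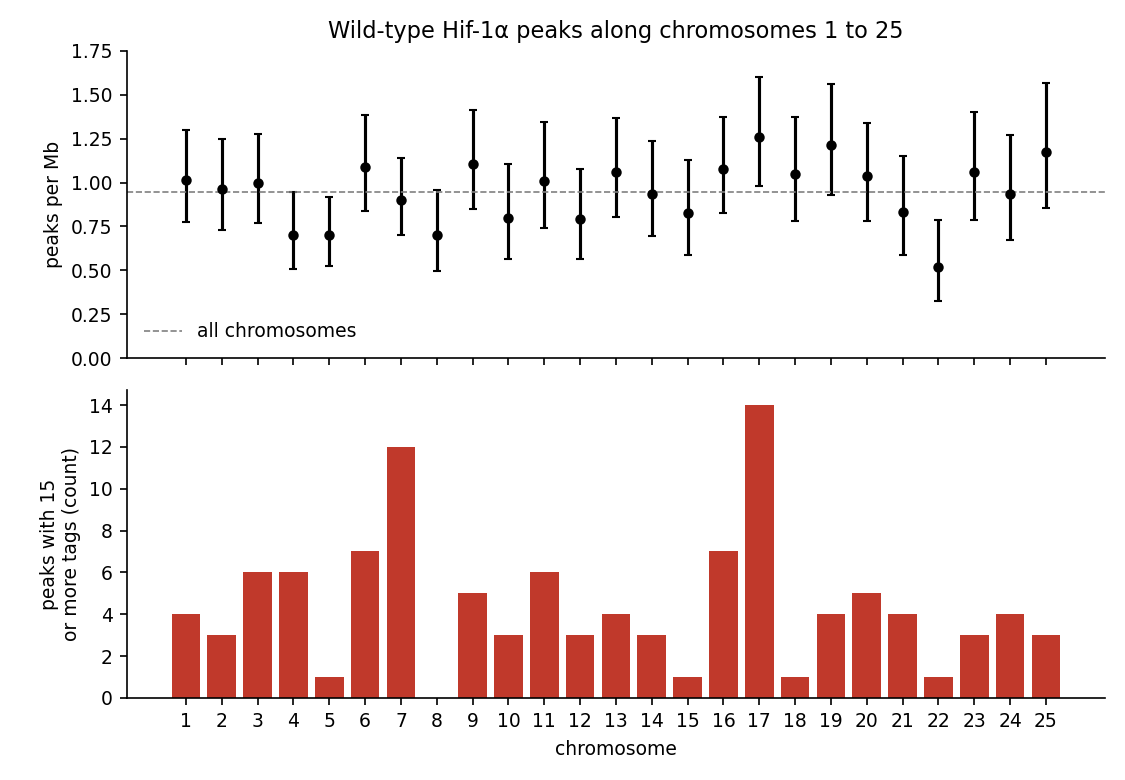
Density of wild-type Hif-1α peaks on each chromosome in peaks per Mb (points, with 95% Poisson intervals as bars and the value for all chromosomes as a dashed line), and the number of peaks with 15 or more tags on each chromosome (bars). Chromosome 17 is highest in both panels, chromosome 22 has the lowest density, and chromosome 8 has no peak with 15 or more tags.

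Along the chromosomes the peaks were spread with little difference between the ends and the middle. When each chromosome was divided into 5 equal parts, the parts held 242, 266, 265, 265 and 242 peaks from the low to the high end of the coordinates. The outermost parts had 0.896 peaks per Mb each (interval 0.787 to 1.02), and the others reached at most 0.985 (interval 0.870 to 1.11). Peaks with 15 or more tags numbered 21, 24, 25, 17 and 23 over the same parts. Of 1339 adjoining windows of 1 Mb, 559 (41.7%) held no peak, 437 held 1, 247 held 2, and 30 held 4 or more. The variance of the counts was 1.15 times their mean. The highest count, 7 peaks, was reached in 2 windows, which were singled out after the counts were seen. In the window on chromosome 17 from 9018180 to 10018179 all 7 peaks had 23 or more tags and neighbouring summits were 1.17 to 94.5 kb apart. In the window on chromosome 6 from 55002053 to 56002052 the peaks had 6 to 21 tags and lay 19.96 to 274.8 kb apart.

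The 1255 gaps between neighbouring summits had a median of 718 kb (order-statistic interval 652 to 764 kb) and quartiles of 263 and 1394 kb, while their mean was 1026 kb. They ran from 85 bp to 10.1 Mb, and their coefficient of variation was 1.08. A gap of 1 Mb or less separated 63.8% of neighbours. Most peaks were thus far apart, with a small number of close groups.

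The widest gaps lay side by side on chromosome 4, where summits were 10.1 Mb apart from 48027051 to 58170800 and 9.48 Mb apart from 38544313 to 48027051. No vhl peak lay in either of them. Chromosome 4 in zebrafish has a long arm known to be heterochromatic and rich in repeats, and only uniquely mapped reads were used, but the part of these in the gaps was not tested. The next widest gaps were 6.57 Mb on chromosome 22, 6.34 Mb on chromosome 6, 6.04 Mb on chromosome 12 and 6.02 Mb on chromosome 22, and these held 5, 21, 11 and 17 vhl peaks in that order. The regions without wild-type peaks on chromosome 4 were therefore empty in both lists, whereas those on chromosomes 6, 12 and 22 were not. The vhl list is longer, with 5177 peaks against 1280, and its ChIP library kept 16145214 tags against 7554444. Peaks of the vhl list in a wild-type gap may thus also reflect depth, which was not tested.

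**Figure D2:**
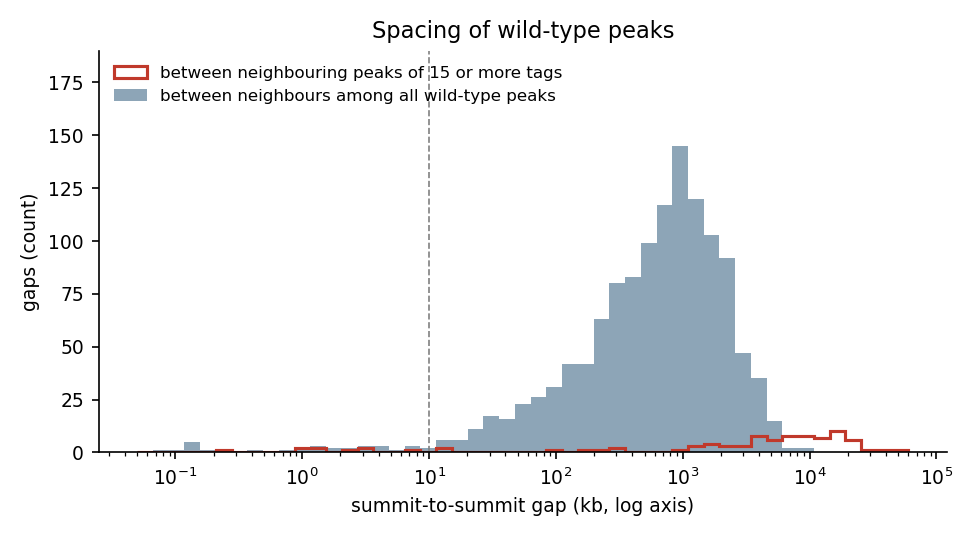
Distances between the summits of neighbouring wild-type peaks, in kb on a log axis, for neighbours among peaks with 15 or more tags (red outline) and among all wild-type peaks (filled, 1255 gaps), with 10 kb as a dashed line. Most gaps among all peaks lie between 100 kb and 10 Mb, and a small separate group lies below 0.5 kb.

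A neighbour within 10 kb was found for 55 peaks (4.30%, Wilson interval 3.32 to 5.55%), in 25 groups, of which 22 were pairs, 1 held 3 peaks and 2 held 4. Of the 30 gaps of 10 kb or less, 10 were of 420 bp or less, and the next was 716 bp. The median of these 10 was 142.5 bp. In 9 of the 10, both wild-type peaks lay within the same vhl peak, and in 5 of these the vhl summit fell between the wild-type summits. Among the 20 wider gaps, both peaks shared a vhl peak once.

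The closest summits, 85 bp apart, were those of chr3:126682-126843, with 16 tags, and chr3:126847-126952, with 9 tags, which were separated by 3 bp. The vhl summit lay 30 bp past the first of them. The peaks chr11:16536674-16536817 and chr11:16536837-16536964, with 16 and 11 tags, had summits 150 bp apart, and the vhl summit lay 9 bp past the first. At chr23:24969506-24969697 and chr23:24969736-24969951, with 22 and 24 tags, the summits were 220 bp apart, and the vhl summit lay 13 bp before the first. The pair on chromosome 1, chr1:38770793-38770896 and chr1:38770909-38771031 with 9 tags each, was the exception without a vhl peak. The other 9 of the 10 closest pairs were thus counted as 2 wild-type peaks where the vhl list gave 1. The fragment length modelled by the caller was 110 bp in vhl and 34 bp in wild-type. The labels give a gel size of 250 bp for both ChIP libraries. Whether the modelled fragment length accounts for the division was not tested.

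Peaks with 15 or more tags were few. They numbered 110 (8.59%, interval 7.18 to 10.3%), against 1170 peaks with 6 to 14 tags. They held 4044 tags, 33.3% of those in all wild-type peaks, on 21.03% of the length covered. The lowest counts predominated in the remainder. Exactly 6 tags, the minimum in the list, were found in 610 peaks (47.7%) and 7 tags in 324 (25.3%), and the number of peaks then fell to 113 at 8 tags, 47 at 9, 30 at 10 and 8 at 14. There was no break at the threshold, since 10 peaks had exactly 15 tags. From there the counts extended thinly, with 25 peaks of 50 tags or more, to a single peak of 265. The 10 peaks with the most tags held 1138 tags, 9.36% of the total.

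**Figure D3:**
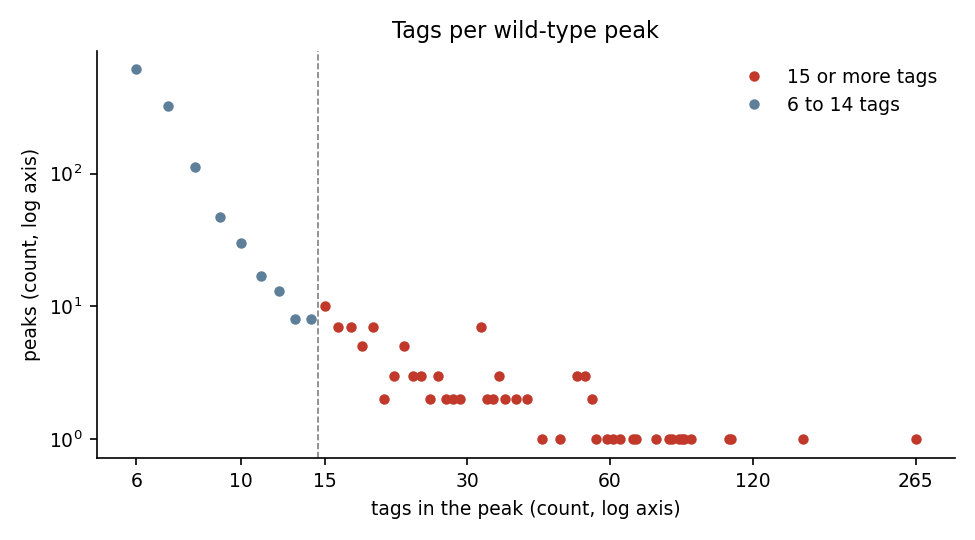
Number of wild-type peaks (log axis) at each number of tags per peak (log axis), for peaks with 15 or more tags (red) and with 6 to 14 tags (blue), with the threshold as a dashed line. The number of peaks falls steeply from 610 at 6 tags to 8 at 14 tags and passes the threshold without a break, with a thin tail that ends at 265 tags.

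The peaks just inside and just outside the threshold had similar medians. The 10 peaks with 15 tags had a median length of 191 bp, a median of 78.6 tags per kb and a median fold enrichment of 22.0. The 8 peaks with 14 tags had medians of 169 bp, 82.9 tags per kb and 21.3. A vhl peak overlapped 5 of the 10 and 7 of the 8. The threshold therefore marks a point on a continuous range.

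Peaks with 15 or more tags were distributed over 24 chromosomes. Chromosome 17 held 14 and chromosome 7 held 12, together 23.6% of them, although these chromosomes held 10.7% of all wild-type peaks. Another 18 chromosomes held 3 to 7, chromosomes 5, 15, 18 and 22 held 1 each, and chromosome 8 held 0 of 39 peaks. This count of 0 allows a share of up to 7.69%, close to the 8.59% over all wild-type peaks. Chromosome 8 was singled out after the counts were seen. On chromosome 17 the density of such peaks was 0.260 per Mb (interval 0.142 to 0.436), against 0.0814 per Mb over all chromosomes, and without the 7 peaks around egln3 chromosome 17 held 7. Peaks with 15 or more tags had a neighbour of any size within 10 kb in 21 of 110 cases (19.1%, interval 12.8 to 27.4%), against 34 of 1170 of the others (2.91%, interval 2.09 to 4.03%). Of the 21, 10 lay in the stretches on chromosomes 4 and 17 described below, and without these stretches the share was 11 of 99 (11.1%, interval 6.32 to 18.8%).

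Peaks with 15 or more tags were longer, with a median of 240.5 bp (interval 222 to 264 bp) against 98 bp (interval 97 to 98 bp), and denser, with a median of 113.8 tags per kb (interval 104 to 121) against 68.2 (interval 67.8 to 69.0), a ratio of 1.67. Length and tags per kb both depend on the number of tags, so these differences partly follow from the threshold. No peak with fewer than 15 tags was longer than 191 bp, whereas 78 of the 110 reached 200 bp. Tags per kb ran from 63.3 to 641.8 in peaks with 15 or more tags and from 48.6 to 302.3 in the others.

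Length and density grew together over the range of tags. The median length was 92 bp at 6 tags, 101 bp at 7, 116.5 bp at 8 to 9, 139.5 bp at 10 to 14, 188 bp at 15 to 19, 233 bp at 20 to 29, 273.5 bp at 30 to 49 and 395 bp at 50 or more. Median tags per kb over the same classes were 65.2, 69.3, 71.4, 79.0, 87.3, 105.3, 124.1 and 152.6. From 6 to 14 tags, density thus changed little and added tags went mostly with added length.

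Fold enrichment did not follow this order. Its median was 18.3 at 6 tags, 17.7 at 7 and at 8 to 9, 16.6 at 10 to 14, 23.3 at 15 to 19, 20.4 at 20 to 29, 29.02 at 30 to 49 and 44.9 at 50 or more. Every peak had to pass the caller's p-value cutoff of 1e-05, which takes a higher fold enrichment with few tags than with many. The medians at few tags were thus partly set in advance. They do not show that these peaks were as enriched as those with more tags. Values also repeated exactly between peaks. A fold enrichment of 17.72 was given to 91 peaks and 22.0 to 84, and only 300 different values occurred among the 1280. The false discovery rate (FDR), which the caller estimates by exchanging ChIP and input, had a median of 48.3% at 6 tags, 45.0% at 7, 73.5% at 8 to 9, 72.2% at 10 to 14, 33.5% at 15 to 19, 20% at 20 to 29 and 4.09% at 30 to 49. The FDR was thus highest in the middle of the range of tags and not at its low end.

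Of the 110 peaks with 15 or more tags, 45 reached an FDR of 5% or less, where 46 of all 1280 wild-type peaks (3.59%) did so. None of the 1094 peaks with 6 to 9 tags did, which allows a share of up to 0.274%. The exception below 15 tags was chr13:41007906-41007958, a peak of 53 bp with 14 tags, a score of 199.3 (the log10 of the p-value times -10), 45.9-fold enrichment and an FDR of 4.76%. At 264.2 tags per kb it was among the densest peaks, and a vhl peak overlapped it. The lowest score at an FDR of 5% or less was 189.1, and peaks of 6 to 9 tags scored at most 92.9. The count of 0 among these peaks was thus largely set by their few tags. Its limit of 0.274% should not be read as a sampled share.

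The peaks with 15 or more tags differed widely in fold enrichment. In the 45 with an FDR of 5% or less the medians were 38 tags, 296 bp, 138.5 tags per kb and a fold enrichment of 39.4. In the other 65 they were 19 tags, 213 bp, 94.3 tags per kb and 17.7. The FDR depends on the same reads as the tags, so these values describe the 2 sets without testing them. A fold enrichment below 10 was found in 15 of the 110 (13.6%) and in 18 of the 1170 others (1.54%). The caller listed only peaks with a p-value of 1e-05 or less. A peak of few tags needs a higher fold enrichment to pass this cutoff than a peak of many. The difference between these shares thus partly follows from the cutoff. These 15 had a median of 40 tags, 379 bp and 140.6 tags per kb, above the 24 tags, 237 bp and 111.1 tags per kb of the 95 with a fold enrichment of 10 or more, but their median FDR was 51.5% against 10.2%. These 15 were selected by their low fold enrichment, so they show only that a peak with many tags can have a low value. A peak of low fold enrichment needs more tags to pass the cutoff, so their higher median of tags also partly follows from it. Of the 15, 10 lay in the stretches described below.

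**Figure D4:**
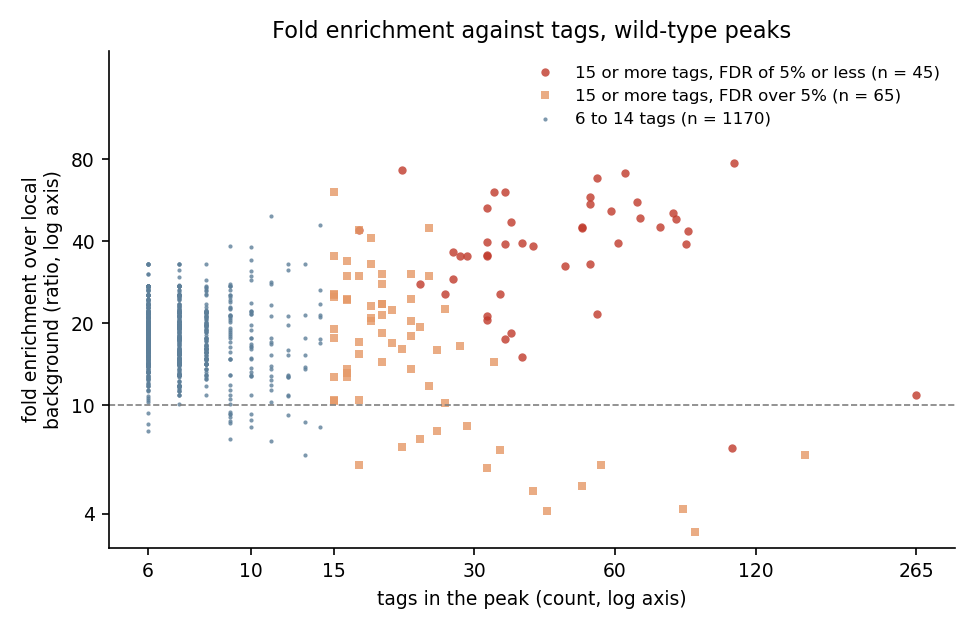
Fold enrichment over local background (ratio, log axis) against tags per peak (count, log axis) for the wild-type peaks with 15 or more tags and an FDR of 5% or less (n = 45), with 15 or more tags and a higher FDR (n = 65) and with 6 to 14 tags (n = 1170), with a fold enrichment of 10 as a dashed line. Above 30 tags some peaks lie below this line. The others range from the peak with 265 tags, just above the line at 10.95, up to 77.19.

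The peak with the highest score lay at chr25:26372817-26373307. It held 108 tags, the third highest number, over 491 bp at 219.96 tags per kb, with a fold enrichment of 77.2, the highest in the list. At chr21:41537282-41537700, 86 tags over 419 bp gave a fold enrichment of 43.6. At chr11:35409670-35410028, 81 tags over 359 bp gave 48.4. At chr13:3586268-3586563, 80 tags over 296 bp gave 50.9 and 270.3 tags per kb, the densest of these. All 4 had an FDR of 0 and overlapped a vhl peak. With the peak at ap3m2, they make up 5 of the 10 peaks with the most tags, each of high fold enrichment.

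The other 5 of these 10 peaks lay on chromosomes 4 and 17 and were also the 5 longest peaks of the list. Around egln3, 7 peaks with 15 or more tags, and no other peaks, lay in 123.9 kb of chromosome 17 from 9682717 to 9806570. They held 676 tags, 16.7% of the tags in peaks with 15 or more, and had fold enrichments of 4.85 to 10.95. The largest, chr17:9776705-9777903, held 265 tags over 1199 bp at 221.0 tags per kb, with a score of 924.1 and an FDR of 0, and no vhl peak overlapped it. The next, chr17:9798220-9799407, held 153 tags over 1188 bp, with 6.58-fold enrichment and an FDR of 10.4%. The third, chr17:9794346-9795179, held 107 tags over 834 bp, with 6.97 and 4.65%.

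The remaining 4 peaks of this stretch held 56 tags (chr17:9797272-9797651), 40 tags (chr17:9806126-9806570), 32 tags (chr17:9682717-9683095) and 23 tags (chr17:9780063-9780204), and their FDR ran from 41.8 to 81.3%. Of the 7 peaks, 3 overlapped a vhl peak, those with 153, 107 and 56 tags. The study describes the wild-type peaks around egln3 as lying at other sites than the vhl peaks. By the rule of 1 shared bp used here, this does not hold for these 3. The reporter transgene of the vhl line was built from a bacterial artificial chromosome that carries phd3, which is egln3. Whether extra copies of this region play a part in the wild-type values was not tested.

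On chromosome 4, 4 peaks followed each other within 3.63 kb from 61296113 to 61299746. They held 29, 51, 89 and 84 tags along the chromosome, with fold enrichments of 8.39, 5.05, 3.42 and 4.17 and FDR values of 79.5, 55.4, 82.9 and 90.3%. The value of 3.42, at chr4:61298419-61299051, was the lowest fold enrichment of the list. No vhl peak lay in this stretch, and no wild-type peak followed it on the chromosome.

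The stretches on chromosomes 17 and 4 together held 11 of the 110 peaks with 15 or more tags, 23.0% of the tags in them, and 10 of the 15 peaks with a fold enrichment below 10. The other 99 peaks with 15 or more tags had a median of 24 tags, 233 bp and a fold enrichment of 25.5, and 43 of them (43.4%) had an FDR of 5% or less. Outside the stretches, 5 peaks had a fold enrichment below 10.

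These included the densest peak of the list, chr25:27522820-27522886, with 43 tags in 67 bp or 641.8 tags per kb, a fold enrichment of 4.08, a score of 50.7 and an FDR of 42.0%. The peaks chr7:35922165-35922224 (17 tags in 60 bp, 283.3 tags per kb) and chr20:25860430-25860551 (34 tags in 122 bp, 278.7 tags per kb) were next in density among peaks with 15 or more tags, with fold enrichments of 6.02 and 6.87. No vhl peak overlapped any of these 3. The 2 densest after them among peaks with 15 or more tags were those of chromosome 13 at 3586268 and of ap3m2, with high fold enrichment. The highest densities were thus reached both by short peaks of low enrichment and by longer peaks of high enrichment. At the other end, chr17:31670759-31670995 held 15 tags over 237 bp at 63.3 tags per kb, below the median of the peaks with fewer tags.

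Overlap with the vhl list, which entered neither the wild-type peak calls nor the tag threshold, differed with the number of tags. A vhl peak overlapped 83 of the 110 wild-type peaks with 15 or more tags (75.5%, interval 66.6 to 82.5%) and 78 of the 1170 others (6.67%, interval 5.37 to 8.24%), where 161 of all 1280 wild-type peaks (12.6%) were overlapped. The intervals lie far apart, and without a replicate of either library no test was made. The share was 2.62% at 6 tags, 4.01% at 7, 11.25% at 8 to 9, 40.8% at 10 to 14, 72.2% at 15 to 19, 70.4% at 20 to 29, 77.3% at 30 to 49 and 84.0% at 50 or more. Its largest step thus fell between 8 and 19 tags, and above 15 tags the intervals of neighbouring classes overlapped.

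Overlap also differed with fold enrichment among the peaks with many tags. It was 3 of 15 (20%, interval 7.05 to 45.2%) with a fold enrichment below 10 and 80 of 95 (84.2%, interval 75.6 to 90.2%) with 10 or more. Of the 15, 10 lay in the stretches on chromosomes 4 and 17. The 3 overlapped peaks all lay around egln3, and those with 56 and 153 tags shared the same vhl peak. The 5 of the 15 outside the stretches were not overlapped. The share of 20% thus rests on few regions, and its interval treats neighbouring peaks as independent. Of the 45 with an FDR of 5% or less, 43 were overlapped. The exceptions were the peak of 265 tags near egln3 and chr13:8974118-8974429, with 36 tags, 47.2-fold enrichment and an FDR of 4.17%. Outside the stretches on chromosomes 4 and 17, 80 of 99 were overlapped (80.8%).

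Where the lists overlapped, the summits lay close together. Only overlapping peaks were measured, so short distances were partly set in advance. The distance between the wild-type and the vhl summit had a median of 26 bp (interval 19 to 40 bp) for the 83 wild-type peaks with 15 or more tags and of 36 bp (interval 22 to 52 bp) for the 78 others, so the intervals overlapped. It was 50 bp or less in 59 of the 83 (71.1%) and in 45 of the 78 (57.7%). The wild-type summit lay before the vhl summit in 43 and after it in 40 of the 83, and before it in 40 and after it in 38 of the 78. The wild-type summits were thus spread about equally over both sides.

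Within the peak, the summit was centred on average. On a scale from 0 at the start to 1 at the end of the peak, its median position was 0.49 over all wild-type peaks (interval 0.487 to 0.507), and 0.49 both with 15 or more tags (interval 0.462 to 0.539) and with fewer (interval 0.487 to 0.509). The summit lay between 0.25 and 0.75 in 1178 of the 1280 (92.0%, interval 90.4 to 93.4%). By tags this was 93 of 110 (84.5%, interval 76.6 to 90.1%) with 15 or more and 1085 of 1170 (92.7%, interval 91.1 to 94.1%) with fewer. No summit lay within 0.1 of either end.

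The form of the distribution differed. With 15 or more tags, the bins from 0.4 to 0.5 and from 0.5 to 0.6 held most summits, 21.8% and 18.2%, and the numbers fell towards both ends. With fewer tags, 26.2% of the summits lay between 0.6 and 0.7 and 19.5% between 0.3 and 0.4, against 16.0% between 0.4 and 0.5 and 12.9% between 0.5 and 0.6. In peaks with few tags the summit was thus set most often to one side of the middle.

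**Figure D5:**
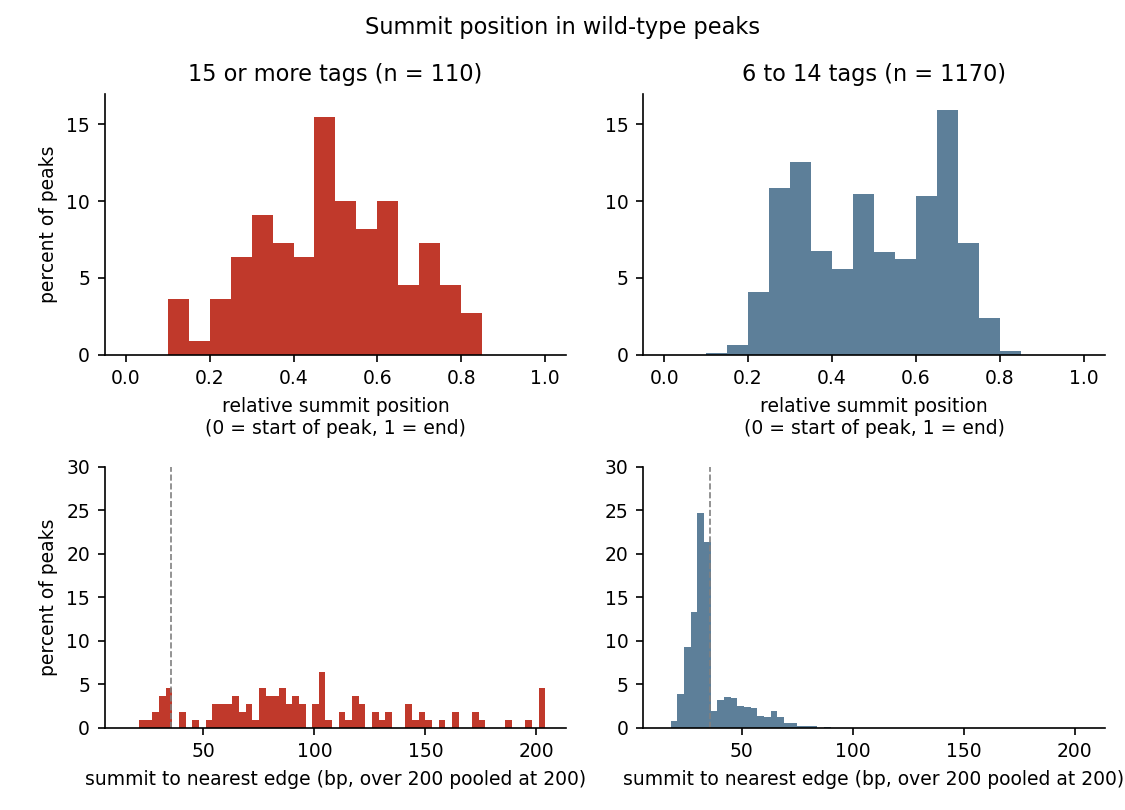
Summit position in wild-type peaks with 15 or more tags (left, n = 110) and with 6 to 14 tags (right, n = 1170), as percent of peaks against relative position (upper panels) and against the distance to the nearest edge in bp (lower panels, with 35 bp as a dashed line and distances over 200 bp drawn together). In peaks with 6 to 14 tags the relative positions form separate humps and 73.3% of the summits lie within 35 bp of an edge, against 11.8% in peaks with 15 or more tags. Peaks with 6 to 14 tags are shorter, so this difference partly follows from length.

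Measured in base pairs, this was a distance from the nearest edge. In peaks with fewer than 15 tags the summit was counted 30 to 35 bp from the nearest edge, with the edge itself as the first base, in 539 of 1170 (46.1%, interval 43.2 to 48.9%), and the most frequent value was 33 bp, with 134 peaks. The numbers then dropped sharply, with 71 peaks at 34 bp, 45 at 35 bp and 8 at 36 bp, and only 60 peaks (5.13%) lay at 36 to 41 bp. With 15 or more tags, 9 of 110 (8.18%, interval 4.36 to 14.8%) lay at 30 to 35 bp, and the median distance was 87.5 bp (interval 79 to 100 bp) against 32 bp (interval 32 to 33 bp). The start was within 35 bp of the summit in 429 and the end in 472 of the 1170. Median lengths were 98 bp with fewer than 15 tags and 240.5 bp with 15 or more. The summit of a short peak cannot lie far from both edges. The differences in distance by number of tags thus partly follow from length.

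The reads were 35 bp long and the caller modelled a fragment length of 34 bp, so the preferred distance was close to both. In 43 of the peaks with fewer tags and 2 of the others, both edges lay within 35 bp of the summit. These are the shortest peaks, the smallest of which was chr6:305502-305539, with 6 tags over 38 bp and its summit at base 19. Of the 78 peaks with fewer than 15 tags that a vhl peak overlapped, 39 (50%, interval 39.2 to 60.8%) had the summit within 35 bp of an edge, against 819 of 1092 (75%, interval 72.3 to 77.5%) of those that none overlapped. Those overlapped by a vhl peak also had more tags, with a median of 9 against 6. At equal numbers of tags the shares were 13 of 16 (81.2%) against 518 of 594 (87.2%) at 6 tags, 8 of 13 (61.5%) against 229 of 311 (73.6%) at 7, 11 of 18 (61.1%) against 55 of 142 (38.7%) at 8 to 9, and 7 of 31 (22.6%) against 17 of 45 (37.8%) at 10 to 14. Within each of these classes the intervals overlapped, and at 8 to 9 tags the share was the higher one in overlapped peaks.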

How the data were processed

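Chromatin of pooled wild-type embryos was sequenced as 1 ChIP and 1 input library, and that of vhl mutants likewise. The authors aligned reads of 35 bp to Zv9 (danRer7) with CASAVA 1.8.2, kept uniquely mapped reads, and called peaks with MACS 1.4.2 on a ChIP library and its own input, counting at most 1 tag at a position. The submitters' processing notes also name bedtools. The modelled fragment length was 34 bp in wild-type and 110 bp in vhl, which may affect peak length, division and summit position. The deposited lists give tags per peak as raw counts, the score as the log10 of the p-value times -10, fold enrichment as a ratio to local background, and the FDR in percent. The authors' caller computed these within each genotype. No common scale joins the genotypes.

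From these lists, a tag-rich peak was defined by 15 or more tags. Tags per kb were tags over length. Relative summit position took the middle of the summit base over the length. Gaps ran from summit to summit, and densities used the span between the outermost peaks of either list. Overlap required 1 bp. Counts carry exact Poisson, shares Wilson, and medians binomial order-statistic 95% intervals. These cover counting error only, and reads carried no molecular identifiers. The depth, 7554444 ChIP and 9102419 input tags, limits what could be detected. A share of 0 was given the limit that 3 counts allow.

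Each sample was grouped by its title, and no comparison has replicates, so no test was run. Genes were named only where the study's lists pair them with a Zv9 position. Peaks were named by position for the most tags, the highest scores, the highest and lowest tags per kb among tag-rich peaks, the closest and widest neighbours, the greatest and least length, and counts next to the threshold. Peaks with low fold enrichment, peaks that were exceptions to a count and the densest windows were added after their values were seen. Members, thresholds and lists were chosen with earlier results of these data known. Alternatives varied the thresholds on tags, score and FDR, the distance that counts as close, the span, the summit measure and the overlap rule. Calculations were checked on simulated data and were made in Python 3.11.15 (pandas 2.3.3, numpy 2.4.6, scipy 1.17.1), with figures from matplotlib 3.10.9. The sequence and annotation of Zv9, and the reads, were not used here. Motifs were therefore searched here in the primers only and not in the peaks. The study itself searched the wild-type peaks. It found no motif in them de novo, and RCGTG near the summit in a minority. Distances were taken to the windows of the study and not to annotated genes.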

Additional observations from a re-analysis of the deposited data

How the results depend on the processing

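No paired analysis was possible because each genotype has a single ChIP and a single input library. Of 36 alternatives, 13 stayed within the counting interval of the value reported, or within 1.5 times a count, and 23 did not. The 1280 wild-type peaks became 97 with a score of 100 or more, 46 with an FDR of 5% or less and 110 with 15 or more tags. The share with a neighbour within 10 kb, 4.30%, was 1.95% within 1 kb and 21.3% within 100 kb. Among the peaks of a set alone it was 12.7% with 15 or more tags, 2.39% with fewer, 6.19% with a score of 100 or more, but 0 of 46 with an FDR of 5% or less, which allows up to 6.52%, so the stricter limits did not move it one way.

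With 10 or more tags as the limit, 186 peaks were tag-rich, they held 40.3% of the tags, their median tags per kb was 1.35 times that of the others, and 61.3% overlapped a vhl peak. With 20 or more tags, they held 28.3% of the tags at a ratio of 1.83. The tag share, 33.3% as reported, was 31.8% without the peak with the most tags and 27.7% without the stretches on chromosomes 4 and 17, an alternative chosen after seeing the data. Without these stretches, 11.1% of the tag-rich peaks had a neighbour of any size within 10 kb, in place of 19.1%. Tags and lengths summed over peaks gave a density ratio of 1.87 in place of 1.67. The same ratio among peaks of 200 bp or more could not be computed, since none of the other peaks was longer than 191 bp.

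The share of summits between 0.25 and 0.75, 92.0%, was 84.5% with 15 or more tags, 87.0% with an FDR of 5% or less and 86.6% with a score of 100 or more, and 54.1% of all lay in a narrower range around the middle, from 33.3 to 66.7% of the length. With 7554444 ChIP tags and a minimum of 6 tags in a peak, regions with fewer tags are not in the list, and the depth limits what could be detected. A place in the list does not by itself show binding, since the peaks of 6 tags had a median FDR of 48.3%.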
